A study of Mus musculus with 17 samples.

Results

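The MS4A genes encode small proteins that cross the cell membrane 4 times, and the 8 mouse members Ms4a1, Ms4a2, Ms4a4b, Ms4a4c, Ms4a6b, Ms4a6c, Ms4a6d and Ms4a7 were followed in lung RNA of mice that drank water with perfluorooctanoic acid (PFOA). The 8 genes were chosen by their symbols, and all 8 of the 31245 genes in the count table that bear these names were found. Ms4a6c had been seen to rise on PFOA when the set was chosen, so its PFOA values are given as a description without a test.

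Lung RNA was sequenced from 17 mice of 3 genotypes. Wild-type (WT) mice were Sv/129 animals bought from a vendor. PPARα null (KO) mice lack the mouse lipid-sensing nuclear receptor PPARα, and humanized PPARα (KI) mice carry the human receptor. KO and KI mice were bred together from parents null for the mouse receptor and parents heterozygous for the human one, so genotype and colony of origin cannot be told apart. From 6 weeks of age, mice drank water with 6.2 μg/mL PFOA and sucrose, or water with 0.5% sucrose alone (vehicle), for 14 weeks. Each group had 3 libraries, 1 per mouse, except WT vehicle, which had 2. Sexes were mixed in WT (2 females, 3 males) and KI (4 females, 2 males), and all 6 KO mice were female.

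Total counts per library ranged from 4116118 to 9237356, and 3 counts in a library stood for 0.325 to 0.729 CPM (counts scaled to a library of 1000000), before TMM normalization. Protein-coding genes took 61.3% of the counts in KO vehicle library 137 and 65.3% in WT vehicle library 122, against 74.4% to 80.4% in the other 15. Ppara RNA was at 8.82 to 11.7 CPM in the libraries labelled KO and at 4.39 to 7.21 CPM in WT, so KO and KI stand for the labels. Markers of lung cells were high in every library, with Sftpc, surfactant protein C of alveolar type 2 cells, at 677 CPM or more and Pecam1, an endothelial adhesion protein, at 239 CPM or more.

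The family is best known through its founding member CD20, the product of Ms4a1, which sits on the surface of B cells and is the target of antibodies used against B cell disease. Ms4a2 encodes the β chain of the high-affinity IgE receptor of mast cells and basophils, and Ms4a4b encodes a T cell surface protein. The Ms4a6 genes, Ms4a4c and Ms4a7 are known mainly from monocytes, macrophages and related myeloid cells, although Ms4a6b is also found in T cells. In these libraries the levels of Ms4a4c also went with those of the B cell gene Ms4a1, as given below. In bulk lung, fewer cells of a type and less RNA per cell cannot be told apart.

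All 8 genes lie in a single cluster on chromosome 19 (mouse build GRCm38, also called mm10). On the plus strand lie Ms4a4c (chr19:11404770-11427246), Ms4a4b (chr19:11443553-11467055), Ms4a6c (chr19:11469366-11482192) and Ms4a6b (chr19:11516512-11531256). On the minus strand lie Ms4a1 (chr19:11249675-11266241), Ms4a7 (chr19:11321039-11336146), Ms4a6d (chr19:11586604-11604849) and Ms4a2 (chr19:11615523-11623719). All 8 are protein-coding in the GENCODE M21 annotation of that build.

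**Figure D1:**
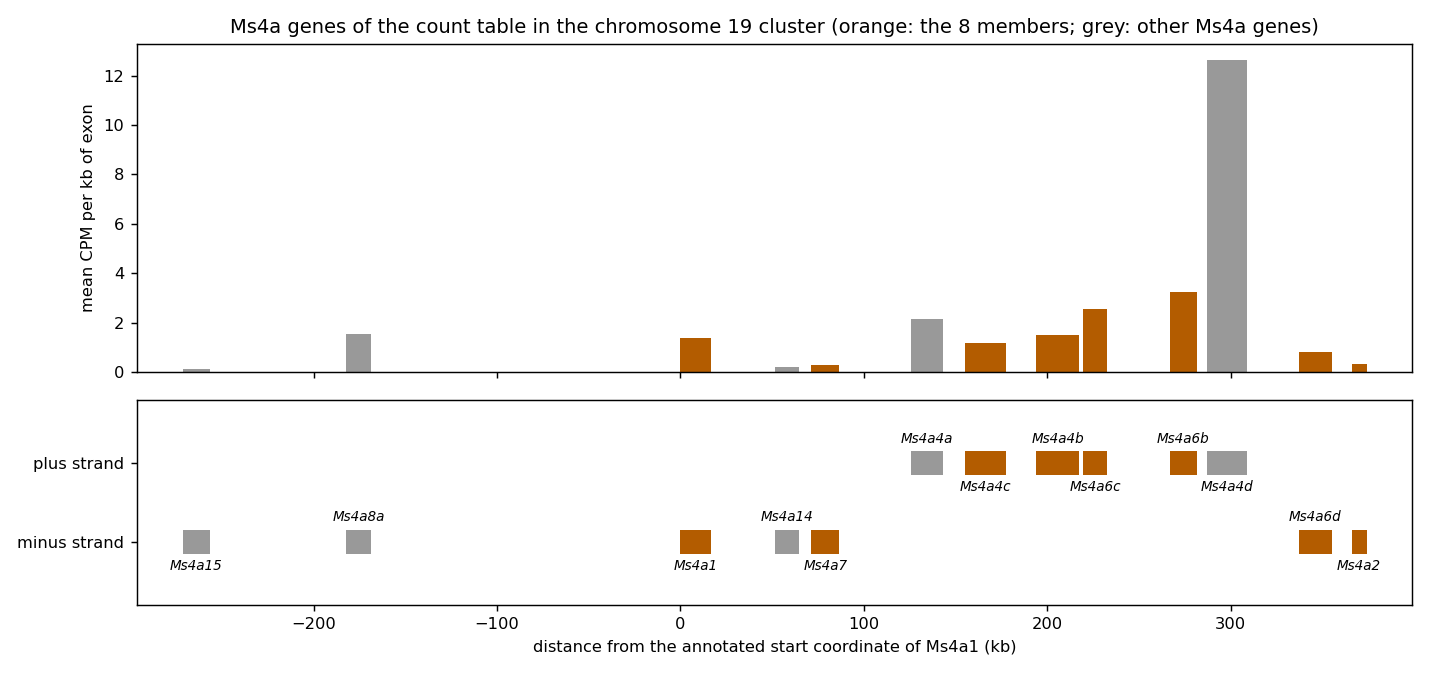
Ms4a genes of the count table in the chromosome 19 cluster, drawn to scale as the distance in kb from Ms4a1, with the mean CPM per kb of exon over 17 libraries above (bar width is the length of the gene) and the strand below; orange marks the 8 members and grey the other Ms4a genes. Among the members, Ms4a6b was the most abundant per length, at 3.24 CPM per kb, and Ms4a4d, which is not a member, stood at 12.6 CPM per kb.

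Some of the members are close copies of each other over part of their exons, and reads from identical stretches cannot be assigned to one of them, while Ms4a1 and Ms4a7 shared 0 stretches of 50 bases with any other member. Ms4a4b and Ms4a4c share the closest stretch found among their coding exons of equal length, exon 5 of each (chr19:11459153-11459278 and chr19:11418993-11419118, plus strand). These exons of 126 coding bases are shown with the 4 bases that differ in capitals.
Ms4a4b exon 5: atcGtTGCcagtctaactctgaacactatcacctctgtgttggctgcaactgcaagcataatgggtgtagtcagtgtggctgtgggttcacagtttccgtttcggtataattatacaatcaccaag
Ms4a4c exon 5: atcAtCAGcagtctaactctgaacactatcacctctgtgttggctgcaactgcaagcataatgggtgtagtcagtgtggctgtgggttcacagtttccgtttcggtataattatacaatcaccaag
The 118 bases after the last difference were identical, a run longer than the study's average trimmed read. Of all 50-base stretches of the Ms4a4c transcripts, 7.73% also occurred in those of Ms4a4b.

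Ms4a6b and Ms4a6c were similar as well. Exon 4 of Ms4a6b (chr19:11521671-11521805) and exon 3 of Ms4a6c (chr19:11472393-11472527), both on the plus strand, have 135 coding bases each, of which 15 differ and are in capitals.
Ms4a6b exon 4: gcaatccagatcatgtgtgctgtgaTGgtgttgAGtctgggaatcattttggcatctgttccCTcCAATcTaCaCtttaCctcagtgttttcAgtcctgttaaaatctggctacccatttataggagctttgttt
Ms4a6c exon 3: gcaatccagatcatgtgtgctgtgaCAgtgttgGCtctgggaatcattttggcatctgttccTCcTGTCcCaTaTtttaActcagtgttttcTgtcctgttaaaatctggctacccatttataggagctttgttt
Their identity was 88.9% with a longest identical run of 42 bases, and 5.85% of the 50-base stretches of Ms4a6c transcripts also occurred in Ms4a6b. For Ms4a6d, 2.31% were shared with Ms4a6b and 0% with Ms4a6c. For Ms4a2, 2.1% were shared with Ms4a4b, a gene with more counts. Between genes with shared stretches the counting model divided reads by estimate, so their separate levels are less certain than those of Ms4a1 or Ms4a7.

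The likeness of Ms4a6b and Ms4a6c extends to their promoters. The 250 bases before each RefSeq start site ( GRCm38.p6, chr19:11518309-11518558 and chr19:11469118-11469367, plus strand) are shown because the levels of both genes varied together, with the runs of at least 12 bases that occur in both windows in capitals.
Ms4a6b promoter: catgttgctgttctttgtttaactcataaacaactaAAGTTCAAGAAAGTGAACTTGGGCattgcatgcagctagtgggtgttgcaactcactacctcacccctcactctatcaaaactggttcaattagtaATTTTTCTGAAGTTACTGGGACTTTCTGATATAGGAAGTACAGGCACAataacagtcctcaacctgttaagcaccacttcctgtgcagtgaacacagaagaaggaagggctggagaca
Ms4a6c promoter: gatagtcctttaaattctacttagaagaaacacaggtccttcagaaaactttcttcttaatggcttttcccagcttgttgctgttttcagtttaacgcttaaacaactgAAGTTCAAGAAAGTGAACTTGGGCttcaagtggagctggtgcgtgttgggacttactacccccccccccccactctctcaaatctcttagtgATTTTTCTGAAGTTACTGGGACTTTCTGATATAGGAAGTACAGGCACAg
Such runs covered 72 bases of each window, and the longest was 48 bases. Ms4a4b and Ms4a4c shared such runs over 92 bases of their windows, the longest of 20 bases. Over the 17 libraries the levels of Ms4a4b and Ms4a4c had a Pearson r of 0.64, and those of Ms4a6b and Ms4a6c 0.81. With the group means removed, r was 0.42 and 0.50. The PFOA difference that chose Ms4a6c enters the value of 0.81. A link between promoter likeness and levels was not tested. Both strands of the windows of the 6 members with an entry were searched for a PPAR response element (AGGTCA repeated after any 1 base), the core of the interferon-stimulated response element (GAAA repeated after any 2 bases) and a core of the myeloid and lymphoid factor PU.1 (GAGGAA). The PU.1 core was found in the Ms4a4b window, 64 bases before the start, and in the Ms4a4c window, 61 bases before it, and it occurs in 23.3% of all 32851 windows of that length. The other 2 motifs, held by 0.0335% and 2.98% of all windows, were not found in the 6. Other forms of the 3 motifs were not searched for, so a window without a match may still hold a site.

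All 8 genes were detected at low levels. Per length, mean levels over the 17 libraries ran from 3.24 CPM per kb of exon for Ms4a6b through 2.54 for Ms4a6c, 1.5 for Ms4a4b, 1.36 for Ms4a1, 1.17 for Ms4a4c and 0.806 for Ms4a6d down to 0.317 for Ms4a2 and 0.275 for Ms4a7. In reads, Ms4a6b and Ms4a4b had 34 and 35 counts or more in each library, while Ms4a2 had 3 counts or fewer in 6 of the 17. Among the 6 members without a library at 0, the highest library stood 47.6-fold above the lowest for Ms4a1, 19.6-fold for Ms4a6c and 3.77-fold for Ms4a6b. The value of Ms4a1 rests on 3 counts in WT vehicle library 122, and it was 9.76-fold without that library. Ordered by group mean, 38 of the 40 neighbouring groups (5 pairs for each gene) had overlapping libraries. The 2 pairs that did not were WT PFOA above WT vehicle for Ms4a1 and KO vehicle above WT vehicle for Ms4a6b, separations that 11.6% and 12.3% of all genes tested also showed.

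**Figure D2:**
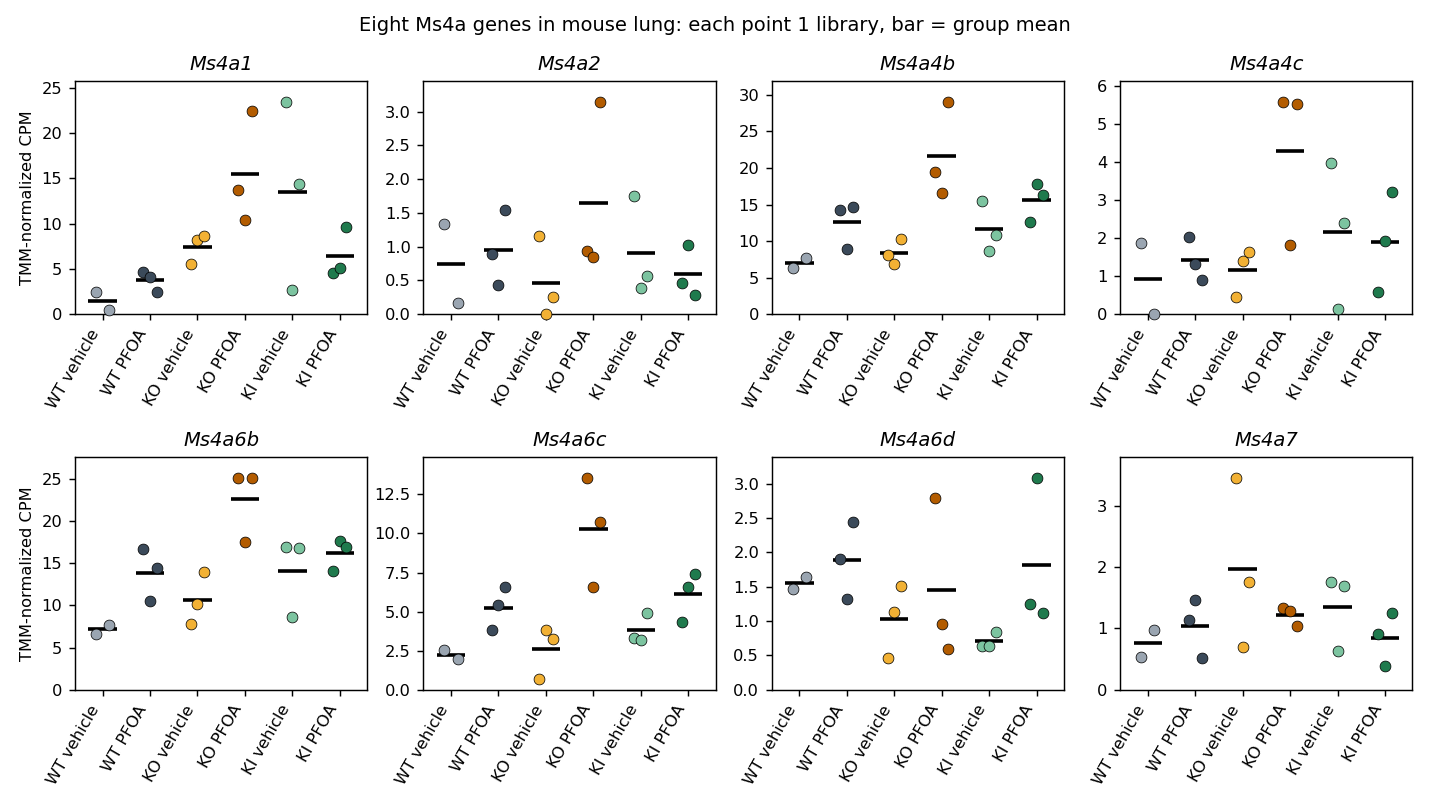
TMM-normalized CPM of the 8 genes (y axis, a scale for each gene) in the 6 groups (x axis), each point 1 library and each bar a group mean. KO PFOA libraries had the highest group mean for Ms4a1, Ms4a2, Ms4a4b, Ms4a4c, Ms4a6b and Ms4a6c, and WT vehicle had the lowest for Ms4a1, Ms4a4b, Ms4a4c, Ms4a6b, Ms4a6c and Ms4a7.

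Between genotypes, Ms4a1 was the member that passed the test. It had 2.40 and 0.491 CPM in the WT vehicle libraries and 4.69, 4.09 and 2.44 CPM in the WT PFOA libraries. In the libraries labelled KO it had 5.53, 8.16 and 8.66 CPM on vehicle and 13.7, 10.4 and 22.4 CPM on PFOA. Each of the 6 KO libraries thus lay above each of the 5 WT libraries, which 1.2% of all genes tested did. In KI it had 23.4, 2.67 and 14.3 CPM on vehicle and 4.57, 5.14 and 9.64 CPM on PFOA. KI vehicle was the most scattered group, with library 116 near the WT level and library 102 the highest of all 17, and the KI PFOA libraries overlapped those of WT.

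Over both exposures, Ms4a1 was 4.07-fold higher in KO than in WT, or 2.03 ± 0.52 on the log2 scale (± gives standard errors of fitted log2 values throughout), with a Benjamini-Hochberg adjusted p of 0.0439 in the quasi-likelihood test of edgeR. A call needed a fold above 2 together with an adjusted p below 0.2. By this rule 1 of the 7 members other than Ms4a6c was called, against 2.36% of all 26946 genes tested. In KI, Ms4a1 was 3.65-fold higher than in WT (log2 fold change 1.87 ± 0.53, adjusted p = 0.122, edgeR), again as 1 of these 7 members, against 1.37% of all genes. At an unadjusted p under 0.05, 3 of the 7 members other than Ms4a6c were higher in KO and 3 in KI, beside 7.43% and 5.66% of all genes. Between KI and KO, 0 of these 7 members were called by edgeR (0.00742% of all genes) and 0 had an unadjusted p under 0.05, which 2.25% of all genes had upwards and 2.52% downwards. DESeq2 called 0 as well, and the log2 difference of Ms4a1 was -0.16 ± 0.45 (adjusted p = 1, edgeR).

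Within the exposures, the KO difference of Ms4a1 was 2.31 ± 0.74 on vehicle (adjusted p = 0.234, edgeR), which missed the threshold and was 1.66 when WT vehicle library 122 was left out and 3.90 when library 107 was, and 2.04 ± 0.55 on PFOA (adjusted p = 0.149, edgeR), which passed. The KI difference was 3.13 ± 0.74 on vehicle (adjusted p = 0.0999, edgeR), which passed, and 0.78 ± 0.57 on PFOA (adjusted p = 1, edgeR), which did not. With Ms4a6c left out, called members numbered 0, 1, 1 and 0 of 7 in these 4 comparisons, against 1.37%, 1.01%, 0.857% and 0.527% of all genes. The vehicle values rest on few libraries. Without WT vehicle library 122 the KI difference on vehicle was 2.48 (adjusted p = 0.846, edgeR), without KI vehicle library 102 it was 2.48 (adjusted p = 0.342, edgeR), and without WT vehicle library 107 it was 4.72. The call of KI against WT over both exposures was lost without WT vehicle library 107 or 122 or KI vehicle library 102 or 135. That of KO against WT over both exposures was kept without any 1 of the 17 libraries, at 1.72 to 2.27. The library names hold a number that several libraries share, called the index number here, whose meaning the labels do not state. With it as a covariate, the KO difference was 0.91 (adjusted p = 0.532, edgeR). All 3 KO PFOA libraries carried the same index number, which no KO vehicle library did, so in KO the index and the exposure cannot be told apart. Both WT vehicle libraries shared another index number, which no KO vehicle or KI vehicle library carried. On vehicle, the index and the differences of KO and KI from WT thus cannot be told apart either. In the females alone, the Ms4a1 means were 3.54 ± 1.62 CPM (SD, n = 2) in WT, 11.5 ± 6.00 CPM (SD, n = 6) in KO and 7.95 ± 5.15 CPM (SD, n = 4) in KI.

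Genes that mark B cells were higher alongside Ms4a1. Of 14 B cell genes, 14 had a higher fitted level in KO than in WT over both exposures, 8 of them called. Their median log2 difference was 1.48, against 0.02 for all genes, of which 2.36% were called. In KI these numbers were 14, 9 and 1.74, against a median of 0.01 for all genes, of which 1.37% were called. Bank1, a B cell scaffold protein, was at 1.86 in KO (adjusted p = 0.0592, edgeR) and 1.82 in KI (adjusted p = 0.106, edgeR), and both passed. Ighd, the heavy chain of IgD on naive B cells, was at 1.44 in KO (adjusted p = 0.244, edgeR) and at 1.82 in KI (adjusted p = 0.194, edgeR), where it passed, while Ighm, that of IgM, was at 0.73 and 1.18 and passed in neither (adjusted p = 0.619 and 0.504, edgeR). Plasma cell genes, which mark antibody-secreting cells, had 0 of 5 called higher in either genotype and 1 called lower in KO.

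The other members differed less between the genotypes. Over both exposures, the KO differences on the log2 scale were 0.57 ± 0.22 for Ms4a4b (adjusted p = 0.244, edgeR) and 0.63 ± 0.22 for Ms4a6b (adjusted p = 0.175, edgeR). Ms4a6b passed the adjusted p but was 1.54-fold higher, short of the fold threshold. The KI differences were 0.53 and 0.57 (adjusted p = 0.415 and 0.340, edgeR). Ms4a6c was at 0.70 in KO and 0.48 in KI, given without a test because the PFOA libraries that chose it enter these values. Ms4a4c was at 1.11 ± 0.67 in KO and 0.81 ± 0.68 in KI (adjusted p = 0.524 and 0.833, edgeR), and with the index number as a covariate these were -0.21 and -0.0040. In the PFOA libraries, Ms4a4b and Ms4a6b of KO lay above those of WT without overlap, as did 9.6% of all genes tested, with log2 differences of 0.77 and 0.70 (adjusted p = 0.306 and 0.398, edgeR). On vehicle, Ms4a4b and Ms4a6b were at 0.73 and 0.97 in KI against WT (adjusted p = 0.471 and 0.290, edgeR), and their libraries did not overlap, as those of 11.8% of all genes. Ms4a6d, with 1.47 and 1.64 CPM in WT vehicle and 0.636 to 0.844 CPM in KI vehicle, lay in the opposite direction without overlap, as 10.4% of all genes did, at -1.12 ± 0.69 (adjusted p = 0.655, edgeR), on 4 to 11 counts a library.

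**Figure D3:**
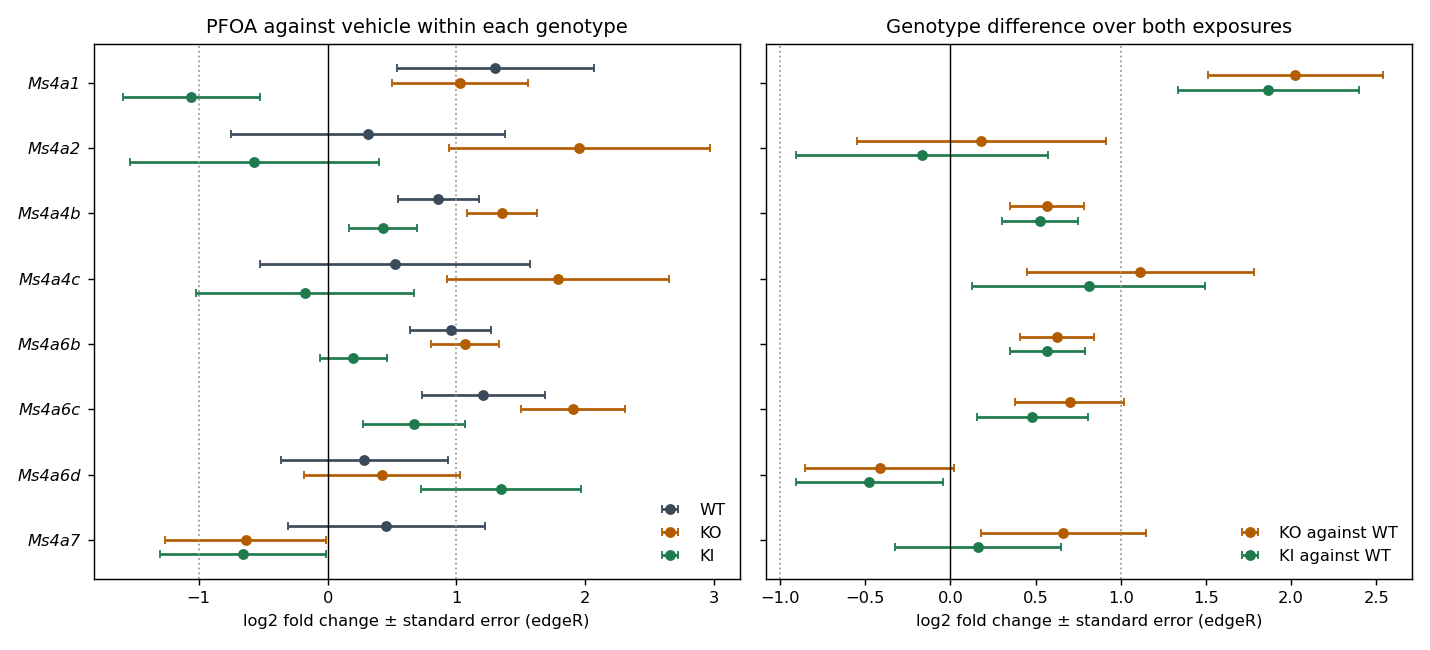
Log2 fold changes with their standard errors (x axis) for the 8 genes (y axis), left for PFOA in each of the 3 genotypes, right for KO and KI against WT over both exposures; dotted lines mark a 2-fold difference. Ms4a1 lay beyond the 2-fold line in both genotype comparisons, and Ms4a4b, Ms4a6b and Ms4a6c were above 0 in all 5 comparisons, and edgeR called 0 of the other 7 genes on PFOA, where the values of Ms4a6c are a description.

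On PFOA, edgeR called 0 of the 7 members tested (all but Ms4a6c) in WT, KO or KI or over the 3 genotypes together, and 0% of all genes in each of these comparisons. DESeq2 on the same genes called 2, Ms4a4b and Ms4a6b, in KO, where it called 0.252% of all genes, and 0 in the other 3 comparisons. At an unadjusted p under 0.05, Ms4a4b and Ms4a6b were higher over the genotypes, 2 of 7 members beside 3.8% of all genes. In WT, KO and KI, 2, 2 and 1 of 7 were higher at that level, against 3.12%, 3.74% and 1.47% of all genes. In these 4 comparisons 0 members were lower at that level, beside 4.23% of all genes in WT, 6.06% in KO, 1.12% in KI and 4.47% over the genotypes. The median log2 fold change of the 7 members was 0.53 in WT, 1.06 in KO and -0.18 in KI, against 0.04, -0.03 and 0.01 for all genes.

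Ms4a4b, the T cell member, had 6.26 and 7.70 CPM in WT vehicle and 14.2, 8.92 and 14.6 CPM in WT PFOA libraries. Its KO values were 8.06, 6.90 and 10.3 CPM on vehicle and 19.4, 16.6 and 29.0 CPM on PFOA. In KI it had 15.4, 8.66 and 10.8 CPM on vehicle and 12.7, 17.9 and 16.4 CPM on PFOA. The PFOA libraries lay wholly above the vehicle libraries in WT and KO, as 1.38% of all genes did in both genotypes, and overlapped them in KI. The log2 fold changes were 0.86 ± 0.31 in WT (adjusted p = 0.548, edgeR), 1.35 ± 0.27 in KO (adjusted p = 0.434, edgeR) and 0.43 ± 0.26 in KI (adjusted p = 1, edgeR), and the 3 genotypes together gave 0.88 ± 0.18 (adjusted p = 0.288, edgeR). In KO, the value passed with DESeq2 at 1.31 (adjusted p = 0.0715) and with edgeR without KI vehicle library 116 (adjusted p = 0.199). Over the genotypes, the DESeq2 adjusted p was 0.0195 at 0.86, short of the fold threshold, and the alternatives ranged from 0.0119 to 0.645.

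Ms4a6b followed a similar course. It had 6.66 and 7.70 CPM in WT vehicle and 16.7, 10.5 and 14.4 CPM in WT PFOA libraries. Its KO values were 7.83, 10.1 and 13.9 CPM on vehicle and 25.1, 17.6 and 25.1 CPM on PFOA. The PFOA libraries lay wholly above the vehicle libraries in WT and in KO, as those of 1.38% of all genes tested did in both genotypes. In KI, 16.9, 8.66 and 16.9 CPM on vehicle stood beside 14.0, 17.6 and 16.9 CPM on PFOA, and these overlapped. The log2 fold changes were 0.96 ± 0.31 in WT (adjusted p = 0.513, edgeR), 1.06 ± 0.26 in KO (adjusted p = 0.434, edgeR) and 0.20 ± 0.26 in KI (adjusted p = 1, edgeR), and the 3 genotypes together gave 0.71 ± 0.18 (adjusted p = 0.392, edgeR). DESeq2 called the KO value at 1.03 (adjusted p = 0.159) and gave 0.70 over the genotypes (adjusted p = 0.0958, range over the alternatives 0.0586 to 0.707), short of the fold threshold, and the KI value was -0.06 without KI vehicle library 116.

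Ms4a6c, the gene seen to rise, had 2.53 and 1.97 CPM in WT vehicle and 3.80, 5.41 and 6.55 CPM in WT PFOA libraries. Its KO values were 0.691, 3.80 and 3.26 CPM on vehicle and 13.6, 6.60 and 10.8 CPM on PFOA. In KI it had 3.34, 3.18 and 4.92 CPM on vehicle and 4.34, 6.55 and 7.41 CPM on PFOA. The PFOA libraries lay above the vehicle libraries in WT and KO, as those of 1.38% of all genes tested did in both, while in KI the lowest PFOA library was below the highest vehicle library. As a description of the values that chose it, its log2 fold changes were 1.21 in WT, 1.90 in KO, 0.67 in KI and 1.26 over the genotypes, with standard errors of 0.48, 0.40, 0.39 and 0.26. Without KO vehicle library 137, where it had 3 counts, the KO value was 1.54. Summed with Ms4a6b, which shares stretches of 50 bases with it, and Ms4a6d, which does not, the KO value was 1.24. Ms4a6b supplied most of the summed counts.

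The level of Ms4a6c carries a further limit. BE692007, annotated as a processed transcript on the opposite strand, overlaps 1088 of its 2050 exon bases, and whether the counting used the strand is not stated in the sources used here. BE692007 had more counts than Ms4a6c in each of the 17 libraries. Ms4a6c took a median of 19.3% of the counts of both genes in the 2 WT vehicle libraries and 19.2%, 31.7% and 37.4% in WT PFOA (lowest to highest), and 8.33% to 27.0% against 27.3% to 41.0% in KO and 17.6% to 23.6% against 23.2% to 34.5% in KI. BE692007 itself was at 7.60 to 11.6 CPM on vehicle and 11.3 to 28.7 CPM on PFOA in KO, with a log2 fold change of 0.99 ± 0.32 (adjusted p = 0.472, edgeR), and was at 0.48 in WT and -0.10 in KI (adjusted p = 0.799 and 1, edgeR). The sum of both genes gave 1.25 in KO.

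The PFOA values of Ms4a1 differed in sign between the genotypes. Its PFOA libraries lay above the vehicle libraries in WT, where 2.44 CPM stood next to 2.40 CPM, and in KO. Such separations upwards were seen in 11.6% of all genes tested in WT, 6.82% in KO and 1.38% in both. The log2 fold changes were 1.30 ± 0.76 in WT (adjusted p = 0.734, edgeR), 1.03 ± 0.53 in KO (adjusted p = 0.532, edgeR) and -1.06 ± 0.53 in KI (adjusted p = 1, edgeR). The KI value was -1.55 without KI vehicle library 116 and -0.40 without KI vehicle library 102, and the KO value was 0.67 without KO PFOA library 155. Subtracting the WT effect from that in KI gave -2.36 ± 0.93 (adjusted p = 0.999, edgeR), which did not pass, and it was the 1 member of 7 with an unadjusted p under 0.05 in that comparison, where 2.39% of all genes were lower at that level and 0% called. It ranged from -3.94 without WT vehicle library 107 to -1.70 without KI vehicle library 102. In WT, where vehicle had 2 libraries, the value was 0.64 without library 122 and 2.89 without library 107. Over the genotypes Ms4a1 was at 0.26 ± 0.40 (adjusted p = 0.886, edgeR), and at -0.07 without WT vehicle library 122 and KO vehicle library 137 together.

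The remaining members were too low to follow closely. Ms4a4c had 0.461, 1.41 and 1.63 CPM in KO vehicle and 5.58, 1.81 and 5.53 CPM in KO PFOA libraries, which did not overlap, a log2 fold change of 1.79 ± 0.86 (adjusted p = 0.514, edgeR) on 2 to 42 counts. In WT and KI its libraries overlapped, from 0 to 2.03 CPM and from 0.127 to 3.98 CPM. Ms4a6d had 0.637, 0.636 and 0.844 CPM in KI vehicle and 1.26, 3.08 and 1.12 CPM in KI PFOA libraries, without overlap, a log2 fold change of 1.34 ± 0.62 (adjusted p = 1, edgeR) on 4 to 24 counts, and 0.74 without KI PFOA library 80. Over the genotypes it was at 0.69 ± 0.36 (adjusted p = 0.640, edgeR). Such a separation upwards was seen in 6.82% of all genes in KO and 4.45% in KI.

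Ms4a2 ranged from 0 to 3.14 CPM and Ms4a7 from 0.385 to 3.46 CPM over all libraries, and the libraries of each overlapped between vehicle and PFOA in every genotype. Their log2 fold changes over the genotypes were 0.54 ± 0.61 (adjusted p = 0.838, edgeR) and -0.36 ± 0.39 (adjusted p = 0.827, edgeR). Both were smaller than their standard errors, on 0 to 21 counts a library for Ms4a2 and 3 to 15 for Ms4a7, the Ms4a7 value was -0.14 without KO vehicle library 137, and that of Ms4a2 was 0.20 without KO PFOA library 155. The highest level of Ms4a2 was in KO PFOA library 155, at 3.14 CPM, and that of Ms4a7 in KO vehicle library 137, the library with the lowest protein-coding share.

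Each member was compared over the 17 libraries with a marker list of the cell type it is known from, as the mean log2 CPM of the list. Each was set beside a single list, so whether another list went with it more closely was not tested. Ms4a1 and the 14 B cell genes had a Pearson r of 0.97 and a Spearman rho of 0.96 (permutation test, two-sided, p = 1e-05 for each, the smallest that 100000 permutations can give). Ms4a4b and 17 T and NK cell genes had r = 0.86 and rho = 0.94, and Ms4a6b had r = 0.91 and rho = 0.97 with 10 classical monocyte genes (permutation p = 1e-05 for each). Ms4a6c had r = 0.93 and rho = 0.91 with these 10 genes, given without a test because the PFOA libraries that chose it enter these values. Ms4a4c had r = 0.76 and rho = 0.82 with the monocyte genes (permutation p = 0.00052 and 8e-05). Its values with Ms4a1, the B cell member, were r = 0.83 and rho = 0.75. With the group means removed, r of Ms4a4c was 0.94 with Ms4a1 and 0.73 with the monocyte genes. The 8 relations were adjusted together, and those of Ms4a1, Ms4a4b, Ms4a6b and Ms4a4c had an adjusted p of 0.00083 or less for r and 0.00013 or less for rho. Without the 2 libraries farthest from the median of each list, r was 0.97, 0.90, 0.92, 0.89 and 0.74 for Ms4a1, Ms4a4b, Ms4a6b, Ms4a6c and Ms4a4c. With the group means removed it was 0.96, 0.71, 0.85, 0.82 and 0.73 (adjusted p = 0.00056 to 0.016, permutation within groups). The PFOA difference of Ms4a6c, which chose the gene, is removed in the last of these.

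The 3 others did not pass. Ms4a2 had r = 0.28 and rho = 0.44 with 8 mast cell and basophil genes (adjusted permutation p = 0.27 and 0.10), Ms4a6d had r = 0.30 and rho = 0.12 with the monocyte genes (adjusted permutation p = 0.27 and 0.65), and Ms4a7 had r = -0.48 and rho = -0.27 with 12 interstitial macrophage genes (adjusted permutation p = 0.070 and 0.34). The value of Ms4a7 was -0.02 without KO vehicle library 137 and KI PFOA library 57. Of the mast cell genes, Kit, Gata2 and Hdc were at 23.4 CPM or more in every library, and Kit and Gata2 are also made by endothelial cells. The mast cell proteases Cpa3, Cma1, Mcpt4, Tpsab1 and Tpsb2 had means of 0.846 CPM or less and were at 0 in at least 1 library each.

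**Figure D4:**
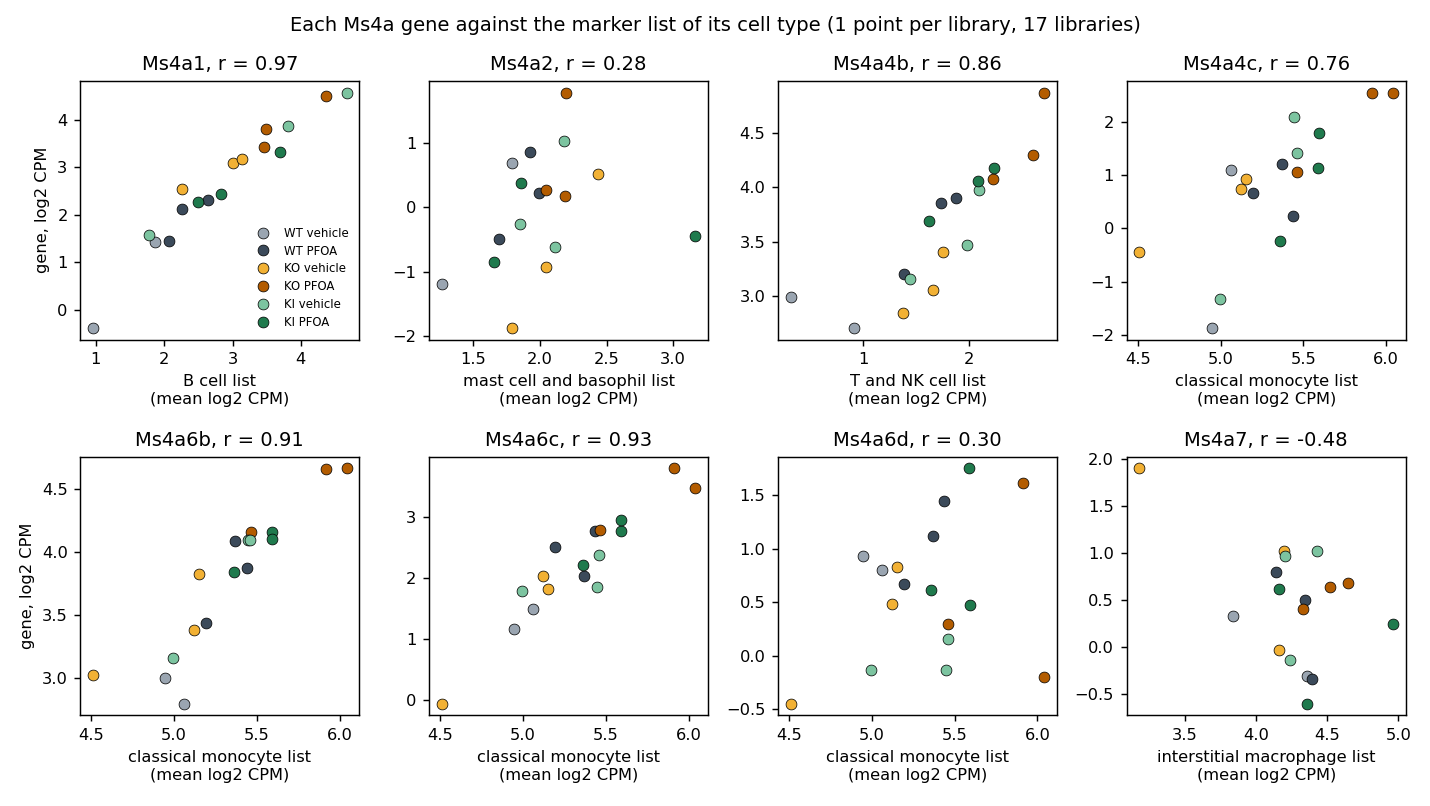
Level of each gene (y axis, log2 CPM) against the mean log2 CPM of the marker list of its cell type (x axis), 1 point per library, coloured by group, with Pearson's r above each panel. Ms4a1 followed the B cell genes at r = 0.97, while Ms4a2, Ms4a6d and Ms4a7 had r of 0.28, 0.30 and -0.48.

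On PFOA, 0 genes of these lists were called by edgeR. At an unadjusted p under 0.05, 11 of the T and NK cell genes, 0 of the B cell genes and 6 of the monocyte genes were higher over the genotypes and 1 monocyte gene was lower, beside 3.8% and 4.47% of all genes. In WT, 2 of the 10 monocyte genes were higher and 3 lower at that level. Of 17 T and NK cell genes, 17 had a higher fitted level in WT and 17 in KO, with medians of 1.22 and 1.05, and 11 in KI, with a median of 0.17. Of 14 B cell genes, 13 were above 0 in WT and 14 in KO, with medians of 1.04 and 0.88, and 0 of 14 in KI, with a median of -0.68. Of the 10 classical monocyte genes 7, 9 and 6 were above 0, with medians of 0.36, 0.90 and 0.05. The summed level of the T and NK cell genes was 24.4 to 38.5 CPM in WT vehicle and 56.6 to 71.8 CPM in WT PFOA libraries, and 51.2 to 62.3 CPM in KO vehicle and 93.5 to 132 CPM in KO PFOA libraries. The 3 most abundant T and NK cell genes in WT, KO and KI were Gzma, a granzyme of cytotoxic cells, at 1.40, 1.57 and 0.59, Lck, a T cell kinase, at 1.27, 1.19 and -0.01, and Cd2, an adhesion receptor, at 0.69, 1.01 and -0.03. Those of the monocyte list were Fn1, fibronectin, at 0.17, 0.44 and 0.01, Hp, haptoglobin, at -1.09, -0.10 and -0.06, and Chil3, a chitinase-like protein of myeloid cells, at 0.53, 1.17 and 1.08. Hp had 392 and 936 CPM in the 2 WT vehicle libraries, against 266 to 348 CPM in WT PFOA. Mean levels on the monocyte list ran from 4.28 CPM to 933 CPM, the latter for Fn1. Which cells of the lung made Fn1 and Hp was not tested. The 3 of the B cell list were Ighm, the heavy chain of IgM, at 1.37, 1.33 and -1.14, Ighd, that of IgD, at 1.52, 1.42 and -0.75, and Bank1, a B cell scaffold protein, at 0.56, 0.95 and -0.59. Of 9 neutrophil genes, 1 in WT, 6 in KO and 1 in KI were higher at an unadjusted p under 0.05, with medians of 0.86, 1.52 and 0.47, as were 6 over the genotypes, with a median of 1.01.

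Markers of structural cells also differed, with 0 genes called among those lists in the comparisons that follow. In WT on PFOA, 6 of 6 ciliated cell genes, 4 of 5 club cell genes and 4 of 6 smooth muscle genes were lower at an unadjusted p under 0.05, beside 4.23% of all genes. Their medians were -1.14, -1.05 and -0.88. The 2 WT vehicle libraries were far apart. The ciliated cell gene Ccdc39 had 30.5 and 90.7 CPM in them and 23.3 to 35.3 CPM in WT PFOA, and the club cell gene Scgb1a1 had 9980 and 21353 CPM and 5653 to 7199 CPM. In KI against WT on vehicle, where Ms4a1 was called, the 7 cardiac muscle genes had a median of 3.22, against 0.01 for all genes. Their summed levels were 2118 to 7377 CPM in KI vehicle and 438 to 745 CPM in the 2 WT vehicle libraries. Within WT PFOA alone they ran from 339 to 4224 CPM. The part of all these cell types in the values of Ms4a1, Ms4a4b, Ms4a6b and Ms4a6c was not tested.

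Between genotypes, 5 of 17 T and NK cell genes were called higher in KO and 5 in KI over both exposures, with medians of 0.62 and 0.57. Of all genes, 2.36% were called in KO and 1.37% in KI in either direction, and their medians were 0.02 and 0.01. Gzma was at 1.70 and 1.65 (adjusted p = 0.00205 and 0.00403, edgeR). Of the classical monocyte genes, 2 of 10 in KO and 1 of 10 in KI were called higher, with medians of 0.07 and 0.23, and Fn1, Hp and Chil3, the 3 most abundant, were at -0.38, -0.51 and -0.43 in KO without a call. Interferon response genes were called higher for 7 of 14 in KO and 5 of 14 in KI. Of the genes of the IgE receptor complex that Ms4a2 belongs to, Fcer1g, its signalling γ chain, was called in KO at 1.12 (adjusted p = 0.118, edgeR) and was at 1.07 in KI (adjusted p = 0.207, edgeR), while the kinases Lyn and Syk were at 0.31 and 0.67 in KO (adjusted p = 0.380 and 0.215, edgeR). Fcer1a, the IgE-binding α chain, did not pass the count filter. Interstitial macrophage genes, the list set beside Ms4a7, were called higher for 1 of 12 in each genotype.

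Between the members, the levels of Ms4a4b and Ms4a6b went together most closely over the 17 libraries (r = 0.93), and r was 0.81 for Ms4a6b and Ms4a6c. With the group means removed, these values fell to 0.77 and 0.50. Ms4a1 and Ms4a4c had r = 0.83, and 0.94 with the group means removed. These are descriptions of points that share libraries, depth and tissue composition. Ms4a6d and Ms4a7 had r between -0.52 and 0.40 with each other and with the rest of the members.

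Among the 19194 other genes with a mean of at least 1 CPM, those most like each member over the 17 libraries were picked by Pearson's r of log2 CPM, the 3 highest for each. For Ms4a1 they were Cd22 (r = 0.96), Cd79b (r = 0.96) and Pax5 (r = 0.95), all of them on the B cell list, and for Ms4a4b Fyb (r = 0.93), Cd300a (r = 0.91) and Bak1 (r = 0.90). For Ms4a4c they were Iglc2, an immunoglobulin light chain gene (r = 0.93), Coro1a (r = 0.90) and Hvcn1 (r = 0.90). Of those of Ms4a6b, Was and Itga4 are given (r = 0.94 and 0.93), and Ms4a6c was followed by Nadk, Tyrobp and Plek (r = 0.92, 0.92 and 0.90). Tyrobp encodes the signalling adaptor DAP12 of myeloid and NK cells. The genes nearest to Ms4a2 were Gpr141, Ccr9 and Mecr (r = 0.77, 0.75 and 0.74), those nearest to Ms4a6d were Trim25, Slc25a46 and Zfp747 (r = 0.87, 0.85 and 0.82), and those nearest to Ms4a7 were Gm26640, Polr1e and Psd2 (r = 0.86, 0.82 and 0.80). With so many genes ranked on the same 17 libraries, even Ms4a2, with 3 counts or fewer in 6 of them, had a gene at r = 0.77.

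Of 15 other genes of the family and its CD20-like relatives, 8 were in the table and 0 of them were called in KO or KI against WT over both exposures or on PFOA. Ms4a4d had a mean of 12.6 CPM per kb of exon, above each of the 8 members per length, with 4.38 to 31.4 CPM in the libraries. On the log2 scale it was at -0.64 in KO and -0.68 in KI against WT (adjusted p = 0.265 and 0.316, edgeR), the opposite sign to Ms4a4b. Ms4a4a was at 0.628 to 3.72 CPM and Ms4a8a at 1.11 to 3.98 CPM. Ms4a14, Ms4a15 and Ms4a20 were at 3 counts or fewer in 4, 15 and 15 libraries. Tmem176a and Tmem176b, transmembrane proteins of antigen-presenting and other cells, lie on chromosome 6 and had means of 25.7 and 78.8 CPM per kb of exon, with log2 fold changes on PFOA over the genotypes of 0.13 and 0.06 (standard errors 0.09 and 0.11).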

How the data were processed

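Total RNA of mouse lung was sequenced from a SMARTer stranded library for each of 17 mice. Per the study's methods and the submitters' processing notes, the authors trimmed reads at their 3′ ends, used STAR 2.6 within Partek Flow for alignment to mm10, divided them among genes by expectation-maximization and deposited estimated counts (expected counts) per gene without normalization. The annotation release and the use of strand are not given in the sources used here. In the deposited table, 31.3% of the values were not whole, and the counts were rounded. Copies of a gene can exchange reads in such a model, and ribosomal or noncoding RNA in a total RNA library leaves fewer counts for low genes.

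Samples were grouped by the genotype and treatment in their labels. The filter kept 26946 of 31245 genes, those summing to 20 counts or more over the libraries, all 8 members among them. They were normalized by TMM, and 1 model over the 6 groups was fitted with edgeR 4.0.16 (quasi-likelihood test, R 4.3.3) for 13 comparisons, with Benjamini-Hochberg adjustment over all genes tested. The scripts were tested on simulated data. Levels are TMM-normalized CPM, computed here from the deposited counts, and levels between genes are compared per kb of exon. Gene positions come from GENCODE M21, in which 96.7% of the names in the table occurred once, 99.4% of these at the same start. Correlations used log2 CPM with a prior count of 2 and 100000 permutations (Python 3.11.15, numpy 2.4.6). The alternatives used DESeq2 1.42.0, another normalization, other filters and covariates, libraries left out, and counts of gene copies summed.

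The members and the marker lists were chosen with earlier results of these data known. All 8 members are named, with the detected genes of the rest of the family, genes among the 3 most abundant of the B cell, T and NK cell, classical monocyte, mast cell and IgE receptor lists and the 3 genes most like each member, of which 1 is not reported here. Replicates are separate mice, and any 2 libraries of a group differed by more than counting noise. Intervals of counting error are not given, and 3 counts are taken as the floor of a library.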

Additional observations from a re-analysis of the deposited data

How the results depend on the processing

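No paired analysis was possible because each mouse number occurs in 1 sample and the groups share none. With the index number, whose meaning is not stated, as a covariate, the members called fell from 1 to 0 in KO against WT and KI against WT over both exposures, KO against WT on PFOA and KI against WT on vehicle, and the Ms4a4c differences over both exposures changed sign to -0.21 in KO and -0.0040 in KI. Calls were also 0 with robust estimation and with an adjusted p under 0.05 in KI against WT over both exposures and KO against WT on PFOA, with sex as a covariate in KO against WT on PFOA, and with an adjusted p under 0.05 or without WT vehicle library 122 and KO vehicle library 137 together in KI against WT on vehicle. Without those 2 libraries, Ms4a1 on PFOA over the genotypes was -0.0706. DESeq2, with either filter, called 2 members on PFOA in KO, Ms4a4b and Ms4a6b, and 1, Ms4a1, in KO against WT on vehicle (0.252% and 1.95% of all genes on the same genes). The protein-coding share as a covariate was chosen after seeing the data, like the sum with BE692007 and the removal of both libraries. With Ms4a6c left out of the count, this covariate gave 1 call (Ms4a1) in KO against WT on vehicle and 1 (Ms4a1) in KO against WT on PFOA, beside 3.44% and 1.97% of all genes. Leaving out 1 library at a time gave 0 to 1 calls on PFOA in KO, in KI against WT over both exposures, in KO against WT on vehicle and in KO against WT on PFOA, where the call was lost without WT PFOA library 50, 56 or 65 or KO PFOA library 52 or 155. It gave 0 to 2 calls in KI against WT on vehicle, with 0 without WT vehicle library 122 or KI vehicle library 102 or 135 and 2 (Ms4a1 and Ms4a6b) without KI vehicle library 116. For the fits without 1 library, with robust estimation, or with sex or the index number as a covariate, the share of all genes called is not given here. Their counts of members therefore cannot be set against a general change in calls. The Ms4a6b value on PFOA in KI ranged from -0.062 to 0.35. With Ms4a6b, Ms4a6c and Ms4a6d summed, the Ms4a6d difference of KI against WT on vehicle became 0.76, since Ms4a6b supplied most of the counts. Over the alternatives, the adjusted p of Ms4a1 (edgeR or DESeq2) ranged from 0.0039 to 0.532 in KO against WT and from 0.0106 to 0.352 in KI against WT over both exposures. The causes of the other changes were not tested. Counts under 25 in a library limit Ms4a2, Ms4a6d and Ms4a7.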
